A study of Mus musculus with 12 samples.

Results

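Cyclins are the regulatory subunits of the cyclin-dependent kinases, the enzymes that drive a cell through its division cycle. Transcripts of this machinery were taken from the deposited tables by gene symbol, 10 of the 54532 genes listed: Ccnd1, Ccnd2 and Ccnd3 (cyclins D1, D2 and D3), Ccne1 and Ccne2 (cyclins E1 and E2), Ccna2 (cyclin A2), Ccnb1 and Ccnb2 (cyclins B1 and B2), and the kinases Cdk1 and Cdk2. All 10 passed the filter on low counts in every comparison. RNA-seq had been performed on bone marrow macrophages from C57BL/6J mice of wild-type genotype, aged 2 to 3 months. Marrow cells were grown with CSF-1, the growth factor that supports macrophage survival and division, first at 12 ng/ml and then at 120 ng/ml for 48 h. The adherent cells were passaged once onto uncoated dishes or onto fibronectin, a matrix protein bound by the integrin that contains the ITGA5 subunit. Cultures grown to confluence were used, and received 10 µg/ml of control IgG or of an antibody that neutralizes ITGA5 for 24 h. This gave 4 groups of 3 libraries, called IgG uncoated, anti-ITGA5 uncoated, IgG fibronectin and anti-ITGA5 fibronectin, and the question was how the antibody and the coating relate to the expression of each cyclin and kinase. The wild-type genotype and the CSF-1 were common to all 4 groups. For its fibronectin plates the study describes the passage of confluent cells, and it gives no cell density per group.

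D-type cyclins respond to growth factors such as CSF-1 and act with Cdk4 and Cdk6 in the G1 phase, where they begin to inactivate the retinoblastoma protein. E-type cyclins act with Cdk2 at the entry into S phase, cyclin A2 acts with Cdk2 in S phase and with Cdk1 in G2, and B-type cyclins act with Cdk1 to bring the cell into mitosis. Transcripts of cyclin A2, the B cyclins and Cdk1 accumulate late in the cycle and are scarce in resting cells, so in a population of cells their level depends on how many cells are in those phases and on how much of each transcript such a cell holds. In bulk RNA these contributions cannot be told apart.

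Library totals ranged from 12954342 to 22075432 counts on genes. The replicates of anti-ITGA5 uncoated differed more from each other (chi-square of 11.4 to 25.6 per gene) than those of the other groups (2.79 to 8.13), where counting error alone gives about 1. The macrophage markers fixed for the check of cell type, with Csf1r, the CSF-1 receptor, at 18085 to 31640 counts, were detected in every library. Summed fibroblast markers (1.48 to 3.01 CPM, counts scaled to the size of the library), neutrophil markers (1.09 to 2.49 CPM, with Ly6g and Retnlg at 0), myeloid progenitor markers (5.64 to 9.78 CPM) and lymphocyte markers (0.217 to 0.687 CPM) were low in all groups. The study describes its replicates as biologically independent experiments, while the labels name no animal or culture for a library, and p-values measure the spread between these libraries. The antibody binds the protein, and Itga5 itself was at 46.1 ± 2.57 FPKM (SD, n = 3) in IgG uncoated and 51.0 ± 1.94 FPKM in anti-ITGA5 uncoated, so its transcript does not check the labels.

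Upon ITGA5 neutralization the late-cycle transcripts Ccna2, Cdk1, Ccnb1 and Ccnb2 rose 1.85- to 4.17-fold on uncoated dishes and 2.02- to 4.51-fold on fibronectin, while the cyclins and the kinase of G1 and of S phase entry moved by less than 1.4-fold in either direction. Without fibronectin, 5 of the 10 genes were called higher (Ccna2, Cdk1, Ccnb1, Ccnb2 and Ccnd2), where 11.0% of all 12924 genes tested were called higher, and Ccne1 was called lower, where 9.79% of all genes were. On fibronectin, Ccna2, Cdk1, Ccnb1, Ccnb2 and Ccnd2 were called higher and none was called lower, where 14.4% and 13.2% of 12916 genes were. Differences were tested with edgeR's quasi-likelihood test on counts, a gene being called at an adjusted p of 0.05 or less over all genes tested, and fold changes are anti-ITGA5 over IgG. The median log2 fold change of the 10 genes was 0.13 without and 0.29 with fibronectin, beside 0.0090 and -0.0038 over all genes tested. The 10 genes were chosen with earlier results of these data known, so their counts and medians are not independent evidence of a direction.

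**Figure D1:**
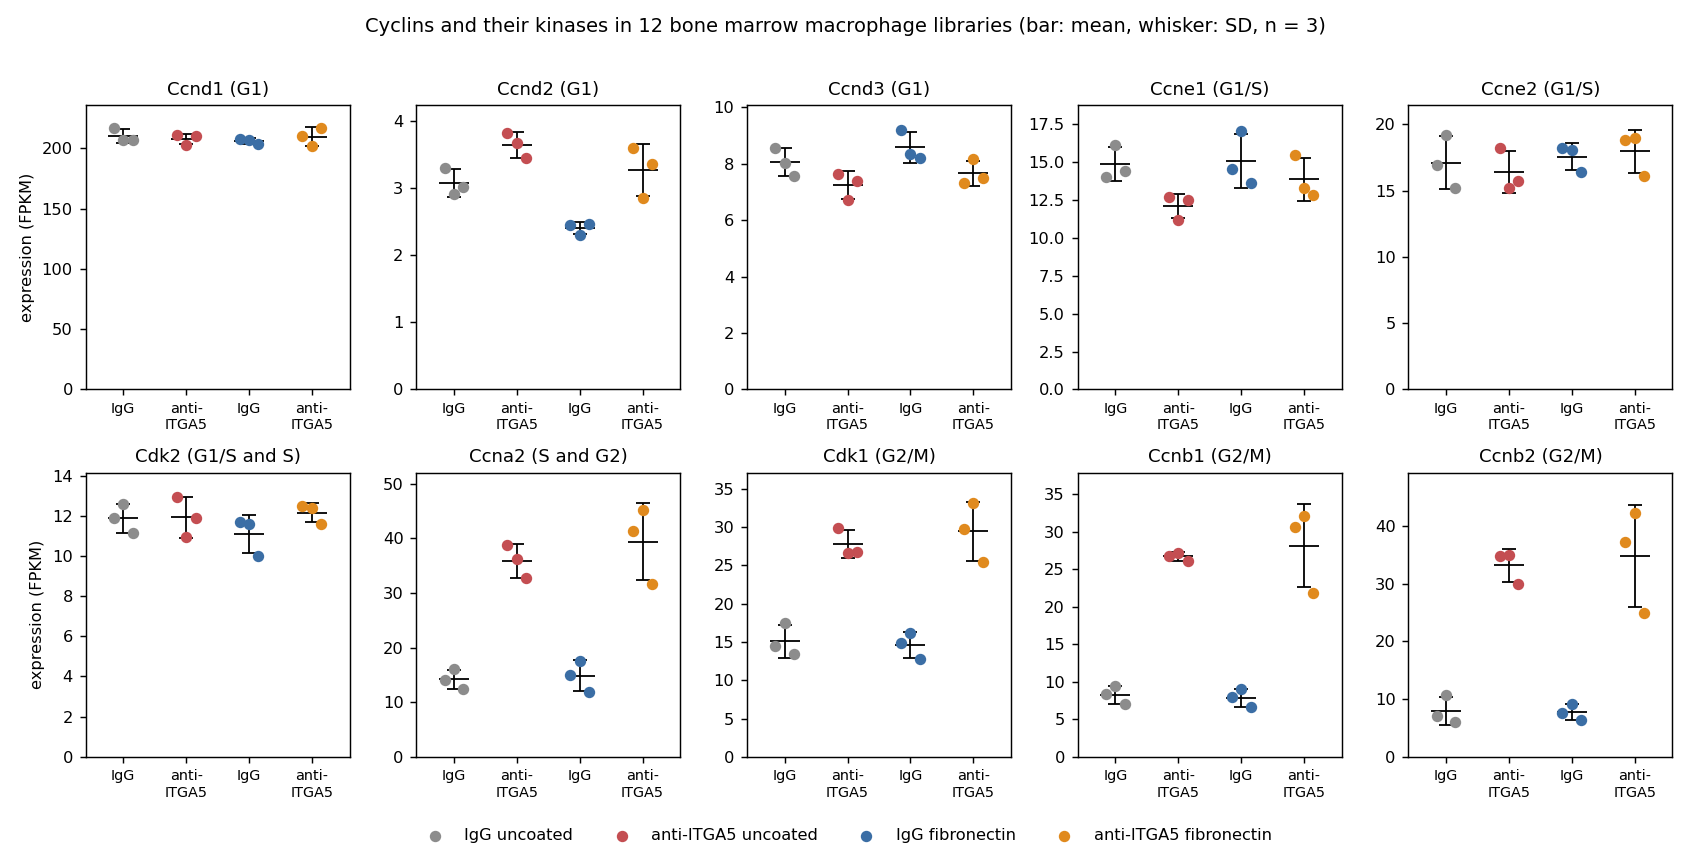
Expression (FPKM, vertical axis from 0) of the 10 genes in each library, ordered by cell cycle phase; points are libraries, bars means and whiskers SDs of 3 libraries per group. Ccnd1 lies between 202 and 217 FPKM in all 12 libraries, whereas in Ccna2, Cdk1, Ccnb1 and Ccnb2 all anti-ITGA5 libraries lie above all IgG libraries.

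Ccnd1, the D-type cyclin most closely tied to mitogen signalling, was by far the most abundant of the 10 per length of transcript. Its level was 217, 207 and 207 FPKM in the 3 IgG uncoated libraries and 211, 203 and 210 FPKM in anti-ITGA5 uncoated. With fibronectin it was 208, 207 and 203 FPKM in IgG and 210, 202 and 217 FPKM in anti-ITGA5. The groups overlapped throughout. The log2 fold change was -0.010 (SE 0.0482, adjusted p = 0.910 by edgeR) without fibronectin and 0.024 (SE 0.0382, adjusted p = 0.678) with it, and rested on 13167 to 21190 counts per library. Ccnd1 held 94.7% to 95.2% of the summed FPKM of the 3 D cyclins in every library.

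Ccnd2 encodes cyclin D2, and was the least abundant of the 10 in each of the 4 groups. Its level was 3.31, 2.91 and 3.02 FPKM in IgG uncoated and 3.83, 3.68 and 3.45 FPKM in anti-ITGA5 uncoated. On fibronectin the IgG libraries were at 2.45, 2.30 and 2.47 FPKM and the anti-ITGA5 libraries at 3.61, 2.85 and 3.36 FPKM. In both pairs every anti-ITGA5 library was above every IgG library. Ccnd2 rose by 0.25 on the log2 scale (SE 0.0738, adjusted p = 0.0356 by edgeR) without and by 0.44 (SE 0.0878, adjusted p = 0.00259) with fibronectin. Without fibronectin the call was kept in 8 of 17 alternatives (adjusted p = 0.0216 to 0.137), and it was lost with DESeq2 (adjusted p = 0.0707) and without IgG uncoated replicate 2 (0.129), IgG uncoated replicate 3 (0.117) or anti-ITGA5 uncoated replicate 1 (0.137). On fibronectin it was kept in 16 of 17 (adjusted p = 3.27e-06 to 0.0590).

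Ccnd3, the third D cyclin, was at 8.57, 8.03 and 7.57 FPKM in IgG uncoated and 7.65, 6.70 and 7.40 FPKM in anti-ITGA5 uncoated. Cultures on fibronectin had 9.20, 8.34 and 8.20 FPKM in IgG and 7.33, 8.17 and 7.50 FPKM in anti-ITGA5. On fibronectin the anti-ITGA5 libraries were lower by a narrow gap (8.17 against 8.20 FPKM at its edges), and without it the antibodies overlapped. The log2 fold change was -0.15 (SE 0.0657, adjusted p = 0.147 by edgeR) and -0.16 (SE 0.0602, adjusted p = 0.0614), neither of which passed the threshold. The second passed in 2 of 17 alternatives, among them the fit without anti-ITGA5 fibronectin replicate 2 (adjusted p = 0.0301).

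Ccne1, which activates Cdk2 at the start of S phase, was at 14.0, 16.2 and 14.4 FPKM in IgG uncoated and 12.7, 11.2 and 12.5 FPKM in anti-ITGA5 uncoated. With fibronectin, Ccne1 was at 14.5, 17.1 and 13.6 FPKM in IgG and 15.5, 13.3 and 12.8 FPKM in anti-ITGA5. The groups were apart without fibronectin and overlapped with it. Ccne1 fell by 0.29 on the log2 scale (SE 0.0744, adjusted p = 0.0199 by edgeR) without fibronectin, and the difference was -0.12 (SE 0.0912, adjusted p = 0.359) with it. The fall was called in 11 of 17 alternatives (adjusted p = 0.00788 to 0.110), and not without IgG uncoated replicate 2 (0.0823) or IgG uncoated replicate 3 (0.0530). The difference between these antibody effects did not pass the interaction test (0.16 on the log2 scale, SE 0.129, adjusted p = 0.9997).

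Ccne2, the other E cyclin, was at 16.9, 19.2 and 15.2 FPKM in IgG uncoated and 18.2, 15.2 and 15.8 FPKM in anti-ITGA5 uncoated. With fibronectin, Ccne2 was at 18.2, 18.0 and 16.4 FPKM in IgG and 18.8, 19.0 and 16.1 FPKM in anti-ITGA5. All groups overlapped. The log2 fold change was -0.055 (SE 0.0915, adjusted p = 0.723 by edgeR) and 0.033 (SE 0.0682, adjusted p = 0.757). The ratio of Ccne1 to Ccne2 was 0.874 ± 0.0666 (SD, n = 3) in IgG uncoated, 0.741 ± 0.0490 in anti-ITGA5 uncoated, 0.858 ± 0.0779 in IgG fibronectin and 0.774 ± 0.0644 in anti-ITGA5 fibronectin.

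Cdk2, the kinase partner of the E cyclins and of cyclin A2, was at 11.9, 12.6 and 11.1 FPKM in IgG uncoated and 12.9, 10.9 and 11.9 FPKM in anti-ITGA5 uncoated. On fibronectin it was at 11.7, 11.6 and 10.0 FPKM in IgG and 12.5, 12.4 and 11.6 FPKM in anti-ITGA5. Both pairs of groups overlapped. The log2 fold change was 0.012 (SE 0.0696, adjusted p = 0.926 by edgeR) without and 0.13 (SE 0.0621, adjusted p = 0.145) with fibronectin. Of the 17 alternatives, 0 called Cdk2 without and 1 called it with fibronectin.

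**Figure D2:**
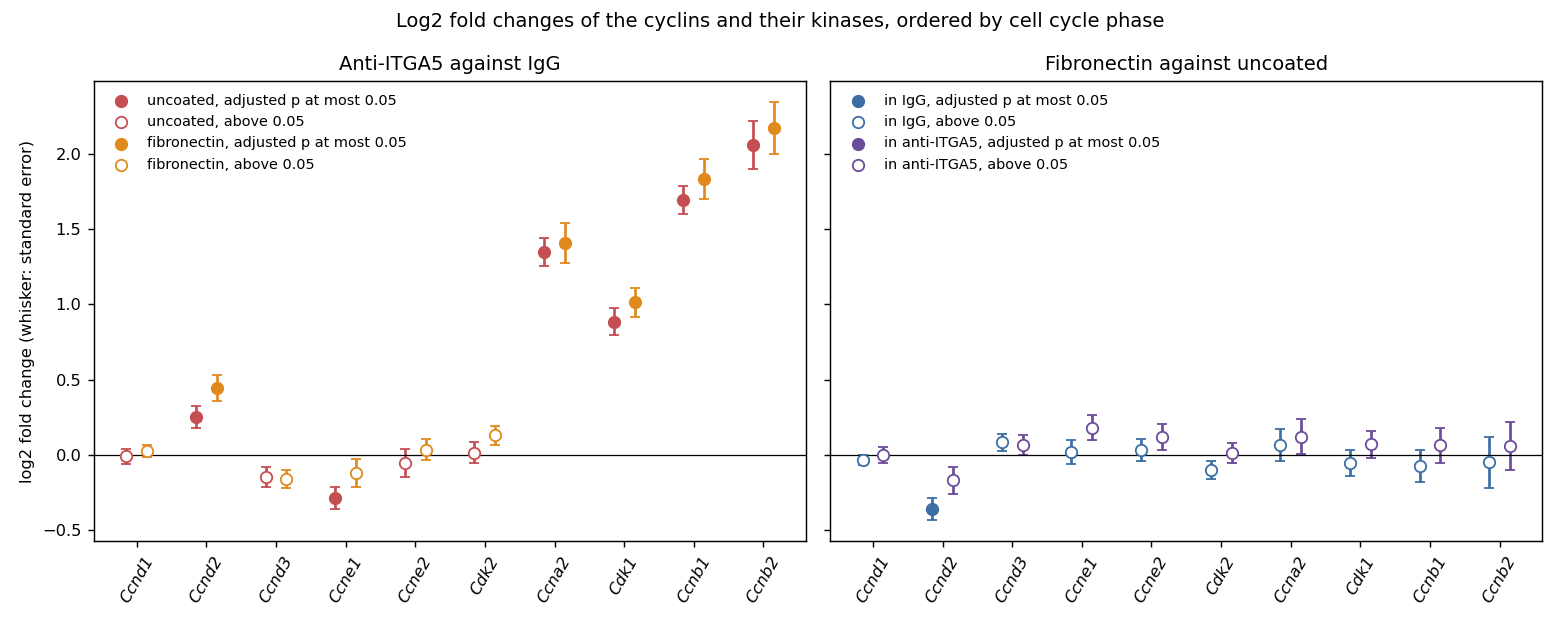
Log2 fold change (vertical axis) with its standard error for each gene, in the antibody comparisons (left) and the coating comparisons (right); filled points have an adjusted p of at most 0.05. The late-cycle genes lie between 0.88 and 2.17 in the antibody comparisons and between -0.072 and 0.12 in the coating comparisons.

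Ccna2 encodes cyclin A2, which serves S phase and G2. Its level was 14.0, 16.0 and 12.4 FPKM in IgG uncoated and 38.7, 36.2 and 32.6 FPKM in anti-ITGA5 uncoated. The fibronectin groups had 15.0, 17.6 and 11.9 FPKM in IgG and 41.3, 45.2 and 31.6 FPKM in anti-ITGA5. The lowest anti-ITGA5 library was well above the highest IgG library in both pairs. The rise was 1.34 on the log2 scale (SE 0.0931, adjusted p = 1.05e-05 by edgeR) without and 1.41 (SE 0.132, adjusted p = 1.21e-05) with fibronectin.

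Cdk1, the mitotic kinase, was at 14.4, 17.5 and 13.4 FPKM in IgG uncoated and 29.9, 26.7 and 26.7 FPKM in anti-ITGA5 uncoated. On fibronectin it was at 14.8, 16.1 and 12.7 FPKM in IgG and 29.8, 33.1 and 25.4 FPKM in anti-ITGA5. No library of one antibody overlapped the other. Cdk1 rose by 0.88 on the log2 scale (SE 0.0909, adjusted p = 9.48e-05 by edgeR) and by 1.01 (SE 0.0937, adjusted p = 1.12e-05), the smallest estimate among the 4 late-cycle genes on either surface.

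Ccnb1, the B cyclin that brings Cdk1 to its mitotic substrates, was at 8.37, 9.44 and 7.03 FPKM in IgG uncoated and 26.8, 27.2 and 26.1 FPKM in anti-ITGA5 uncoated. On fibronectin it was at 8.01, 9.01 and 6.64 FPKM in IgG and 30.6, 32.1 and 21.8 FPKM in anti-ITGA5. The groups were separate, and the anti-ITGA5 libraries were closer together without fibronectin (SD 0.550 FPKM) than with it (SD 5.52 FPKM). Ccnb1 rose by 1.69 on the log2 scale (SE 0.0902, adjusted p = 2.06e-06 by edgeR) and by 1.83 (SE 0.132, adjusted p = 2.65e-06).

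Ccnb2, the second B cyclin, had the largest fold change of the 10. Its level was 7.14, 10.7 and 6.07 FPKM in IgG uncoated and 34.7, 35.0 and 29.9 FPKM in anti-ITGA5 uncoated. On fibronectin it was 7.52, 9.15 and 6.41 FPKM in IgG and 37.2, 42.2 and 25.0 FPKM in anti-ITGA5. The highest IgG library was far below the lowest anti-ITGA5 library. Ccnb2 rose by 2.06 on the log2 scale (SE 0.160, adjusted p = 1.77e-05 by edgeR) without and by 2.17 (SE 0.173, adjusted p = 4.23e-06) with fibronectin, on 163 to 1203 counts per library. Among all genes tested it ranked 22 by fold change without and 9 with fibronectin, Ccnb1 ranked 54 and 21, Ccna2 125 and 78, and Cdk1 362 and 199. The calls of these 4 genes were kept in 17 of 17 alternatives in both antibody comparisons. In these comparisons the exact permutation test on FPKM, which cannot go below p = 0.10 with 3 against 3 libraries, gave that smallest value for all 4. It gave the same value for Ccnd2 in both comparisons, for Ccne1 without fibronectin and for Ccnd3 with it.

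Other transcripts moved with these rises. Summed over 7 macrophage markers, expression was 13375 to 14474 CPM in the IgG libraries and 9900 to 11498 CPM in the anti-ITGA5 libraries, and 64.4% to 72.2% of each sum was Lyz2, which encodes lysozyme. Lyz2 fell by 0.51 on the log2 scale (SE 0.0734, adjusted p = 0.000789 by edgeR) without and by 0.46 (SE 0.0348, adjusted p = 3.09e-06) with fibronectin. The other 6 markers summed to 4015 to 4045 CPM in IgG uncoated and 3521 to 3788 CPM in anti-ITGA5 uncoated, which did not overlap. On fibronectin they summed to 3898 to 3939 and 3740 to 3907 CPM, which overlapped with this scaling by total counts. With edgeR's TMM factors (0.974 to 0.983 in IgG fibronectin, 1.005 to 1.011 in anti-ITGA5 fibronectin) the fibronectin ranges would be apart too. Of the 7 markers, 4 were called lower in each antibody comparison (2 to 5 over the alternatives without and 4 to 5 with fibronectin) and none higher, except for 1 on fibronectin with total counts and with the replicate block. Of all genes tested, 9.79% were called lower and 11.0% higher without fibronectin, and 13.2% and 14.4% with it. The defining marker Csf1r was at -0.12 on the log2 scale (SE 0.0600, adjusted p = 0.202 by edgeR) without and -0.016 (SE 0.0433, adjusted p = 0.818) with fibronectin. Of the 3 myeloid progenitor markers tested on fibronectin, 2 were called lower, where 13.2% of all genes were, and they are named here after their values were seen. Cd34, found on blood progenitors, was at -0.41 (SE 0.131, adjusted p = 0.0334 by edgeR) and rested on 65 to 152 counts per library, and Mpo, myeloperoxidase, was at -0.94 (SE 0.329, adjusted p = 0.0499) and rested on 3 to 21. Summed, the progenitor markers were at 7.97 to 9.78 CPM in IgG fibronectin and 6.51 to 7.60 CPM in anti-ITGA5 fibronectin, which did not overlap, and at 6.93 to 8.12 and 5.64 to 7.75 CPM without fibronectin, which did. Over the alternatives 0 to 2 of them were called, 0 with DESeq2 and 0 to 1 without any single library. The part of these other markers in the rise of the cyclins was not tested. The rise of Ccnb2 was 1.90 to 2.33 over the alternatives without fibronectin, including each of the spread-out anti-ITGA5 uncoated libraries left out in turn, and 2.01 to 2.36 on fibronectin.

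Because FPKM corrects for length, the 10 levels could also be set in order. In IgG uncoated, Ccnd1 (210 ± 5.60 FPKM, SD, n = 3) was followed by Ccne2, Cdk1, Ccne1, Ccna2 and Cdk2, of which each overlapped the next. After a gap came Ccnb1, Ccnd3 and Ccnb2, which again overlapped, and then Ccnd2. In IgG fibronectin the order was Ccnd1, Ccne2, Ccne1, Ccna2, Cdk1, Cdk2, Ccnd3, Ccnb1, Ccnb2 and Ccnd2, where Ccne2 to Cdk1 and Ccnd3 to Ccnb2 overlapped their neighbours. Upon neutralization the late-cycle genes moved above the E cyclins, and the order in both anti-ITGA5 groups was Ccnd1, Ccna2, Ccnb2, Cdk1, Ccnb1, Ccne2, Ccne1, Cdk2, Ccnd3 and Ccnd2. There, Ccna2 overlapped Ccnb2 and Cdk1 overlapped Ccnb1, while Ccnb1 was separate from Ccne2. Ccnb2 overlapped Cdk1 only on fibronectin, and Ccne1 overlapped Cdk2 only without it. The cyclins A2, B1 and B2 together made up 9.28% to 12.5% of the FPKM of the 8 cyclins in the IgG libraries and 23.4% to 32.7% in the anti-ITGA5 libraries.

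Ratios within a library do not depend on its scaling. Cdk1 over Cdk2 was 1.20 to 1.39 in the 6 IgG libraries and 2.19 to 2.68 in the 6 anti-ITGA5 libraries. Cyclin B1 over its kinase Cdk1 was 0.521 to 0.581 in IgG and 0.860 to 1.03 in anti-ITGA5, and cyclin A2 over Cdk1 was 0.919 to 1.09 and 1.22 to 1.39. Ccnb2 over Ccnb1 was 0.853 to 1.13 in IgG and 1.15 to 1.32 in anti-ITGA5. For each of these ratios, every anti-ITGA5 library was above every IgG library.

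**Figure D3:**
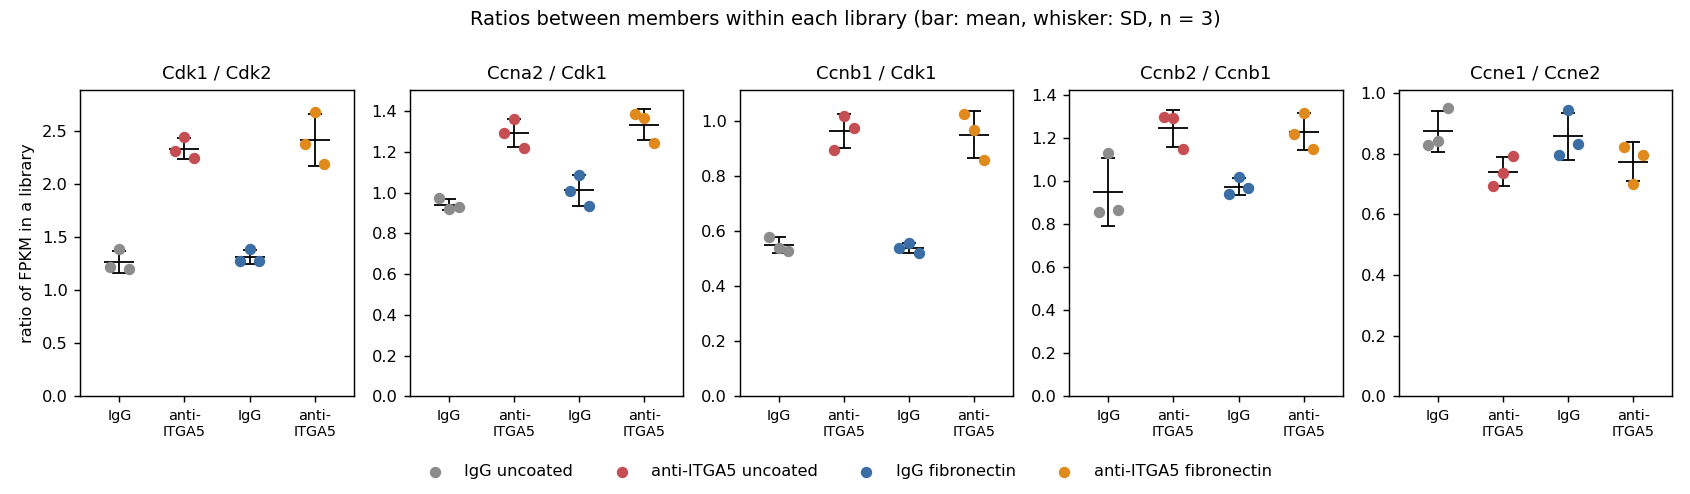
Ratios of FPKM between pairs of the genes in each library (vertical axes from 0); points are libraries, bars means and whiskers SDs of 3 libraries per group. Cdk1 over Cdk2 lies between 1.20 and 1.39 in IgG and between 2.19 and 2.68 in anti-ITGA5, and Ccne1 over Ccne2 overlaps between the antibodies on fibronectin.

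The promoters of several of these genes are shown because late-cycle genes are known to share short elements near their start: CCAAT boxes, bound by NF-Y, and the cell cycle homology region, written TTTGAA, bound by the MuvB complex. RefSeq windows for build GRCm38.p6 were matched by symbol for 6 of the 10 genes, and the late-cycle genes Cdk1, Ccnb1 and Ccnb2 are printed with Cdk2, which was not called. Each runs 5′ to 3′ on the strand of the gene from 130 bases before the start to 15 bases from it, with CCAAT and TTTGAA, or their reverse complements, in capitals. They lie on the minus strand at chr10:69352898-69353042 (Cdk1), chr13:100786472-100786616 (Ccnb1), chr9:70421540-70421684 (Ccnb2) and chr10:128705037-128705181 (Cdk2). The RefSeq starts of Cdk1 and Ccnb1 lie inside the gene as the tables annotate it.
Cdk1: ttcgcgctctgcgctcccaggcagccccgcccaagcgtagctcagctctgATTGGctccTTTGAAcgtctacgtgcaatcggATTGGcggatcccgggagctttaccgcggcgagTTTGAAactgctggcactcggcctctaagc
Ccnb1: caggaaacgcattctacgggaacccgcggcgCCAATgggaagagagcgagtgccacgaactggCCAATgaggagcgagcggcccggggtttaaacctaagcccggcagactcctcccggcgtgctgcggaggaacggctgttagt
Ccnb2: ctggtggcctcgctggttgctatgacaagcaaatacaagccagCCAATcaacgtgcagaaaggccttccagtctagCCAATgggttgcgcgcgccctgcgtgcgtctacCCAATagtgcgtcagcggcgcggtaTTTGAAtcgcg
Cdk2: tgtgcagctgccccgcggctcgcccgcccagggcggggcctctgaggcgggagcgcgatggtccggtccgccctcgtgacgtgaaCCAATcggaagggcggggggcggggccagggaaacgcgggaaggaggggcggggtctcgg
In the whole windows of 300 bases, CCAAT was found on either strand 3 times in Cdk1, 2 times in Ccnb1, 3 times in Ccnb2 and 1 time in Cdk2. All the CCAAT matches in Ccnb1, Ccnb2 and Cdk2 were in the direct orientation on the strand of the gene, and those in Cdk1 were inverted. TTTGAA was found 2 times in Cdk1 and 2 times in Ccnb2, and in neither Ccnb1 nor Cdk2. Ccne1 had neither, and of 2 starts of Ccnd3 only the second had 1 CCAAT. Among 32851 windows of the same length, 37.4% held at least 1 CCAAT, 11.7% at least 2 and 3.37% at least 3, while 17.9% held at least 1 TTTGAA, 2.31% at least 2, and 6.95% held both motifs. The motifs do not overlap each other, and a match describes the letters only. Ccna2, Ccnd1, Ccnd2 and Ccne2 were not matched.

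The coating was compared within each antibody. In IgG, Ccnd2 fell by 0.36 on the log2 scale with fibronectin (SE 0.0741, adjusted p = 0.0429 by edgeR), from 3.08 ± 0.207 FPKM (SD, n = 3) to 2.41 ± 0.0916 FPKM, with no overlap. It was the 1 gene of the 10 called lower, where 0.124% of 12925 genes were, and none was called higher, where 0.325% were. The other 9 genes lay between -0.10 (Cdk2) and 0.084 (Ccnd3), with none at an unadjusted p under 0.05. The call on Ccnd2 was lost without any single library (adjusted p = 0.0566 to 0.346) and was kept in 5 of 17 alternatives. In anti-ITGA5, none of the 10 was called, with DESeq2 as with edgeR, and 0 had an unadjusted p under 0.05; of all 12863 genes tested, 0% were called higher and 0% lower by edgeR (461 had an unadjusted p under 0.05, and DESeq2 called 5). There the fold changes ran from -0.17 (Ccnd2) to 0.18 (Ccne1, SE 0.0826, adjusted p = 0.979), and the late-cycle genes lay between 0.057 (Ccnb2, SE 0.158) and 0.12 (Ccna2, SE 0.116). The IgG uncoated libraries serve both the antibody and the coating comparison, as does each other group in its own pair.

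Whether the antibody effect differed between surfaces was tested as an interaction over all 12 libraries. None of the 10 genes was called, and 0 had an unadjusted p under 0.05, where 0% of 13455 genes were called higher and 0.0223% lower. The differences, fibronectin minus uncoated, were 0.11 for Ccnb2 (SE 0.279), 0.14 for Ccnb1 (SE 0.187), 0.12 for Cdk1 (SE 0.150), 0.059 for Ccna2 (SE 0.192) and 0.19 for Ccnd2 (SE 0.119). The largest in size was that of Ccnd2.

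Within a group the late-cycle genes also varied together. In each of the 4 groups the library numbered 2 was above and the library numbered 3 below the group mean for Ccna2, Ccnb1 and Ccnb2. For Ccnb2 the deviations of these libraries were 0.46 and -0.34 on the log2 CPM scale in IgG uncoated, 0.10 and -0.16 in anti-ITGA5 uncoated, 0.26 and -0.25 in IgG fibronectin and 0.31 and -0.44 in anti-ITGA5 fibronectin. Cdk1 did the same except in anti-ITGA5 uncoated, where replicate 2 was at -0.04. In anti-ITGA5 fibronectin replicate 3, Ccnd1 was 0.06 above its group mean. Over the 12 libraries the deviations from the group means had Pearson's r of 0.914 to 0.952 among the 6 pairs of these genes. The E cyclin Ccne2, which did not pass the antibody tests, had an r of 0.905 with Cdk1 and 0.879 with Cdk2. These deviations share libraries and their depth and are given as a description.

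**Figure D4:**
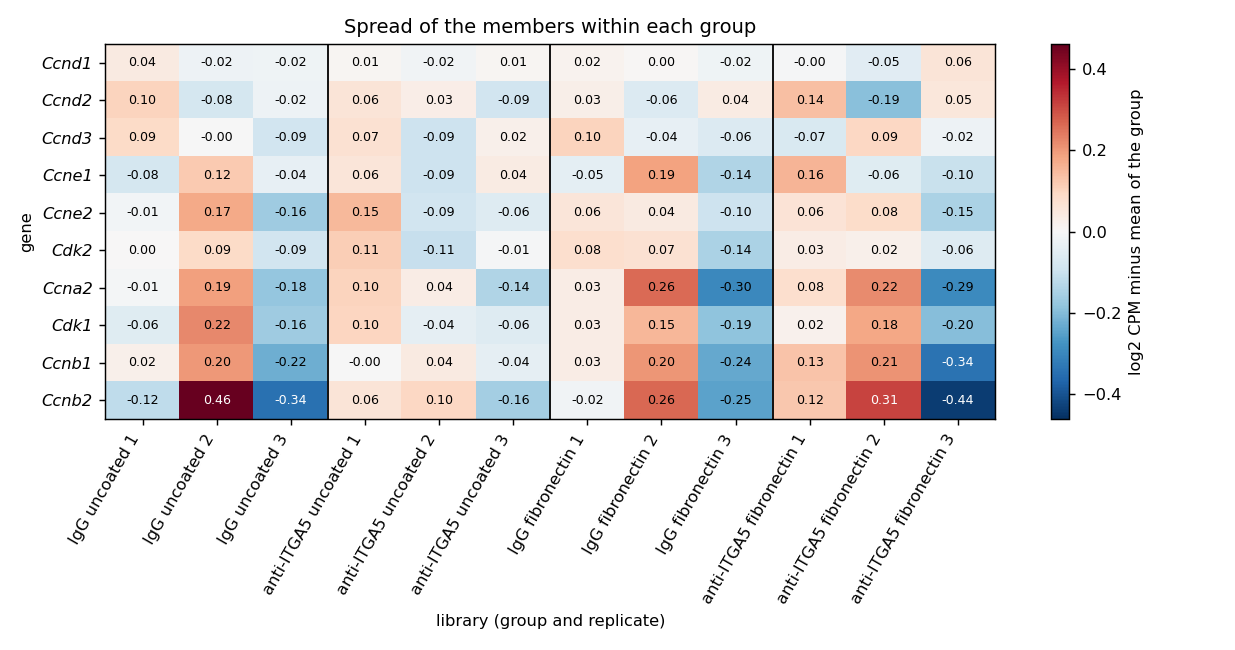
Deviation of each library from the mean of its group (log2 CPM, colour scale and printed numbers) for each gene (rows) and library (columns). The rows of Ccna2, Cdk1, Ccnb1 and Ccnb2 are lowest in replicate 3 of every group and highest in replicate 2 except for Ccna2 and Cdk1 in anti-ITGA5 uncoated, while Ccnd1 stays within 0.06 of its group means.

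The genes whose pattern was most like each of 3 cyclins were searched among 11686 genes that had 10 counts or more in each of the 12 libraries. For Ccnb1 they were Racgap1 (r = 0.998 over 12 libraries), a regulator of cytokinesis, the mitotic kinase Plk1 (0.997) and the spindle protein Tpx2 (0.997). These values carry the split between the antibodies, since all 4 transcripts were higher in the anti-ITGA5 libraries. For Ccne2 the most similar genes reached only 0.893 (Sptssa), 0.859 (Fcna) and 0.845 (Fam117a), and for Ccnd1 0.866 (Rps6ka1), 0.845 (Homer1) and 0.793 (Dlx1as).

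The other genes of the machinery were read from lists by role, beside the 11.0% of all genes tested that were called higher and 9.79% called lower without fibronectin, and 14.4% and 13.2% with it. A count near these shares is no result about a list. Of 10 other cyclins, kinases and Cks subunits tested, 4 were higher and 1 lower without fibronectin and 5 higher with it, with 3 to 5 and 4 to 6 higher over the 17 alternatives. The 1 lower was lost without IgG uncoated replicate 1 and in the limma fits on log2(FPKM + 0.1) and on log2(FPKM + 1) without a filter. The Cdk-binding subunits Cks1b and Cks2 rose by 0.80 (SE 0.0905, adjusted p = 0.000179 by edgeR) and 1.45 (SE 0.143, adjusted p = 7.10e-05) on the log2 scale without fibronectin, and by 0.90 and 1.39 with it. Ccnf, which encodes cyclin F, rose by 1.09 (adjusted p = 1.11e-05) and 1.12 (adjusted p = 1.22e-05). The D cyclin partner Cdk4 rose by 0.20 (adjusted p = 0.0251) and 0.15 (adjusted p = 0.0335). These calls of Cdk4 were lost without any single library except anti-ITGA5 uncoated replicate 2 and anti-ITGA5 fibronectin replicate 3 (adjusted p = 0.0675 to 0.122 without and 0.0553 to 0.141 with fibronectin). Cdk6 was at 0.28 (adjusted p = 0.212) and 0.094 (adjusted p = 0.136). The first value rested on anti-ITGA5 uncoated replicate 2, at 35.6 FPKM beside 23.7 and 22.3 FPKM in the other libraries of its group, and was 0.028 (adjusted p = 0.638) without it. Cdk4 was at 49.6 ± 0.963 FPKM (SD, n = 3) in IgG uncoated, above Cdk6 (22.5 ± 0.416 FPKM) and Cdk2 (11.9 ± 0.718 FPKM). Ccng1, cyclin G1, a target of p53, fell by 0.25 (adjusted p = 0.00800; 0.0518 without IgG uncoated replicate 1) without fibronectin and was at -0.086 (adjusted p = 0.114) with it, and Ccng2 was at -0.15 (adjusted p = 0.191) and -0.0046 (adjusted p = 0.973).

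Of 7 CDK inhibitors tested without fibronectin 3 were higher and none lower, and of 6 tested with it 2 were higher and 2 lower. Over the alternatives 2 to 3 were higher and 0 to 1 lower without fibronectin, the 1 lower appearing with DESeq2, with all 12 libraries in one fit and without anti-ITGA5 uncoated replicate 2 or 3. With fibronectin 2 were higher in every alternative and 1 to 3 lower, with 1 lower on omission of any library but IgG fibronectin replicate 2. Cdkn1a, which encodes p21 and was the most abundant of the 3 inhibitors named here at 146 ± 3.76 FPKM (SD, n = 3) in IgG uncoated, was at -0.20 on the log2 scale (adjusted p = 0.0680 by edgeR) without fibronectin and fell by 0.17 (adjusted p = 0.00569) on fibronectin. Without anti-ITGA5 uncoated replicate 2 or 3 the first difference of Cdkn1a passed, at -0.12 (adjusted p = 0.0370) and -0.27 (adjusted p = 0.0378). Cdkn1b, p27, was at -0.19 (adjusted p = 0.0565) and -0.18 (adjusted p = 0.141). Cdkn2c, an inhibitor of Cdk4 and Cdk6, moved the other way and rose by 1.25 (adjusted p = 9.80e-06) and 1.23 (adjusted p = 1.54e-05).

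The kinase Cdk1 is held inactive by Wee1 kinases and released by Cdc25 phosphatases, and 4 of these 5 genes were higher and none lower in each antibody comparison and in each alternative. Of 13 pocket proteins, E2F and DP factors, which govern transcription at S phase entry, 2 were higher and 2 lower without fibronectin, and 5 higher and 1 lower with it. The alternatives gave 2 to 4 higher and 0 to 2 lower without fibronectin, with 1 lower on omission of any IgG uncoated library or of anti-ITGA5 uncoated replicate 1. With fibronectin they gave 3 to 5 higher and 0 to 2 lower, with 3 higher and 0 lower without IgG fibronectin replicate 1 or 3 or anti-ITGA5 fibronectin replicate 1, and 4 and 0 without replicate 2 of either. E2f1 was at -0.019 (SE 0.0548, adjusted p = 0.852 by edgeR) and 0.056 (SE 0.0704, adjusted p = 0.598). Rb1, the retinoblastoma gene, was at 0.091 (adjusted p = 0.258) and rose by 0.14 (adjusted p = 0.0461) on fibronectin, a call lost with DESeq2 (adjusted p = 0.0997) and without any single library but anti-ITGA5 fibronectin replicate 2 (adjusted p = 0.103 to 0.164). Of 7 genes of the MuvB complex with its late-cycle partners, 4 and 5 were higher and none lower, with 3 to 4 and 2 to 6 higher over the alternatives. Among them Foxm1, which drives late-cycle transcription, rose by 1.11 (adjusted p = 4.96e-05) and 1.21 (adjusted p = 2.30e-05), and Mybl2, B-Myb, by 0.50 (adjusted p = 0.000402) and 0.41 (adjusted p = 0.00529).

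Of 20 genes of cyclin destruction, 10 were higher and 1 lower without and 12 higher and 1 lower with fibronectin. Over the alternatives 8 to 10 and 10 to 13 were higher and 0 to 1 lower, and without fibronectin none was lower on omission of any library but anti-ITGA5 uncoated replicate 2. Cdc20, the mitotic activator of the anaphase-promoting complex that marks cyclin B for destruction, rose by 2.08 (SE 0.0648, adjusted p = 9.13e-08 by edgeR) and 2.24 (SE 0.153, adjusted p = 2.29e-06). Fbxo5, an inhibitor of that complex, rose by 0.73 (adjusted p = 3.34e-05) and 0.72 (adjusted p = 3.83e-05). Of 13 genes of the growth signals upstream of D cyclins, 1 was higher and 1 lower without and 1 higher and 2 lower with fibronectin. These counts are near or below the shares of all genes. Over the alternatives 1 to 3 were higher and 0 to 3 lower without fibronectin, with 0 lower without IgG uncoated replicate 3, 3 lower without anti-ITGA5 uncoated replicate 2 and 2 higher without anti-ITGA5 uncoated replicate 3. With fibronectin 0 to 3 were higher and 1 to 2 lower, with 1 lower on omission of any library but anti-ITGA5 fibronectin replicate 2. Myc was at 0.12 (adjusted p = 0.129) and 0.10 (adjusted p = 0.141).

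Beside these, 15 of 15 G2 and M phase markers were higher in each antibody comparison and in each alternative, with a median log2 fold change of 1.44 and 1.42. Of 15 S phase markers 5 were higher and none lower, with a median of 0.15 and 0.11. This count ran from 1 to 8 over the alternatives in both comparisons, with 1 in the limma fits on log2(FPKM + 0.1) and on log2(FPKM + 1) without a filter. Without fibronectin it was 3 without IgG uncoated replicate 1 or 3 or anti-ITGA5 uncoated replicate 1, and 8 without anti-ITGA5 uncoated replicate 2. There 1 marker was lower, as it was with DESeq2, with at least 10 counts in every library, with all 12 libraries in one fit and with the replicate block. Mki67, the common marker of cycling cells, rose by 1.44 (SE 0.123, adjusted p = 3.25e-05 by edgeR) and 1.35 (SE 0.115, adjusted p = 6.66e-06). The G2 and M phase markers summed to 903 to 1274 CPM in the IgG libraries and 2474 to 3468 CPM in the anti-ITGA5 libraries, and the S phase markers to 2352 to 2686 and 2699 to 3013 CPM. Neither pair of ranges overlapped with this scaling by total counts. The S phase gap was narrow, and edgeR's TMM factors (0.983 in IgG fibronectin replicate 2, 1.005 in anti-ITGA5 fibronectin replicate 3) would close it. None of these lists had a gene called in either coating comparison by edgeR with the filter and scaling described. With the replicate block 2 of the other cyclins, kinases and Cks subunits and 1 pocket protein, E2F or DP factor were lower in the coating comparison of IgG, 1 growth signal gene was higher and 1 lower, and 1 S phase marker was higher. In that of anti-ITGA5, 1 gene of the other cyclins, kinases and Cks subunits and 1 of the growth signals were lower with the filter at 1 count. The lists were chosen with earlier results known, so their counts are not independent evidence of a direction.

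**Figure D5:**
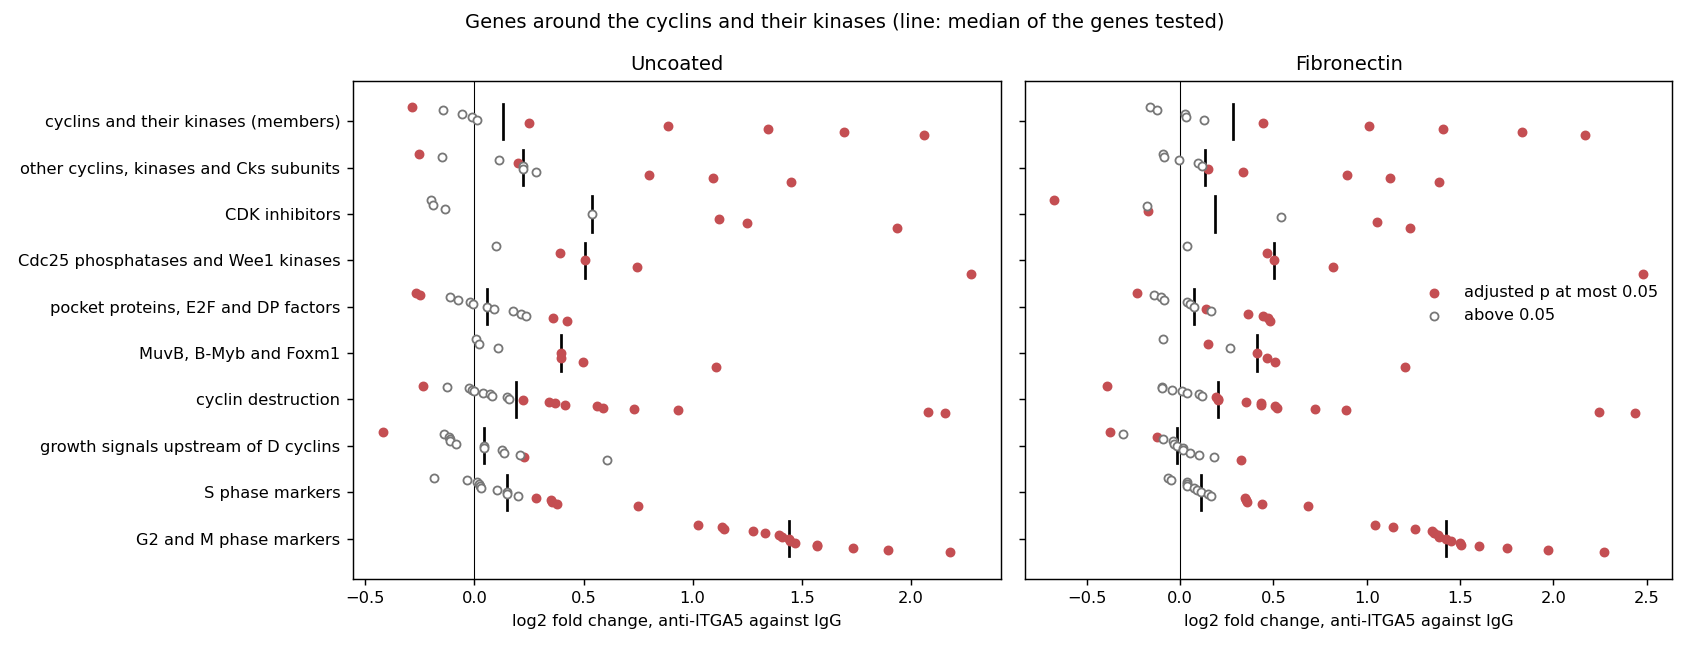
Log2 fold change upon ITGA5 neutralization (horizontal axis) of the genes of each list without (left) and with fibronectin (right); filled points have an adjusted p of at most 0.05 and lines mark medians of the genes tested. The G2 and M phase markers have medians of 1.44 and 1.42, while the S phase markers have medians of 0.15 and 0.11.

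In GRCm38 coordinates as the tables give them, Ccnd1 (ENSMUSG00000070348) lies on the minus strand of chromosome 7 from 144929931 to 144939925 and Ccnd2 (ENSMUSG00000000184) on the minus strand of chromosome 6 from 127125162 to 127152193. Ccnd3 (ENSMUSG00000034165) lies on the plus strand of chromosome 17 from 47505051 to 47599691. Ccne1 (ENSMUSG00000002068) lies on the minus strand of chromosome 7 from 38097984 to 38107534 and Ccne2 (ENSMUSG00000028212) on the plus strand of chromosome 4 from 11191351 to 11204779. Cdk2 (ENSMUSG00000025358) and Cdk1 (ENSMUSG00000019942) lie on the minus strand of chromosome 10, from 128697939 to 128705031 and from 69335146 to 69352938. Ccna2 (ENSMUSG00000027715) lies on the minus strand of chromosome 3 from 36564865 to 36572150, Ccnb1 (ENSMUSG00000041431) of chromosome 13 from 100778650 to 100786570 and Ccnb2 (ENSMUSG00000032218) of chromosome 9 from 70407692 to 70421547. Ccne1, Cdk1, Ccnb1 and Ccnb2 overlap no other annotated gene. Ccna2 overlaps Exosc9, Cdk2 overlaps Pmel, Ccne2 overlaps Ints8, Ccnd3 overlaps Bysl, and Ccnd1 and Ccnd2 overlap other genes too, on the opposite strand in each case, and reads from such a pair cannot be told apart where counting did not use strand. The annotated pseudogene copies of Ccnb1, Ccnb2 and Ccnd3 had 1 to 8, 2 to 11 and 0 to 2 counts per library.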

How the data were processed

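RNA-seq counts and FPKM of 12 libraries in 4 groups of 3 were used, and 0 columns were left out. The authors aligned reads with TopHat2 2.0.9 to mm10 (GRCm38.p6) and deposited counts per gene from HTSeq 0.6.1, without normalization, and FPKM, which divide counts by gene length and library depth; Cufflinks 2.1.1 is also named in the submitters' processing notes. The strand setting and annotation release were not given in the sources used here.

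Counts were tested with edgeR 4.0.16 in R 4.3.3 (filterByExpr with minimum count 10 and minimum total count 15, TMM, quasi-likelihood test, Benjamini-Hochberg adjustment), on the 6 libraries of each comparison and on all 12 for the interaction. The standard error is the size of the log2 fold change over the square root of F. The test was checked on simulated data in which 200 genes were changed by 1 on the log2 scale. Over the comparisons it recovered 163 to 191 of them and also called 6 to 16 unchanged genes. FPKM were compared with 2-sided exact permutation tests. Promoter letters were read from RefSeq windows. Alternatives were DESeq2 1.42.0, scaling by the size factors of DESeq2 or by total counts, a filter of 1 count in all or of 10 in each library, all 12 libraries together, the replicate number as a block, limma 3.58.1 on log2(FPKM + 1) or log2(FPKM + 0.1) at a mean of at least 0.5 FPKM or without a filter, a threshold of 0.01 and the omission of every library in turn.

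The genes named are the 10 members, Itga5, Itgb1, Csf1r, Mki67, 17 listed genes of the pathway and the 3 genes most like each of Ccnb1, Ccne2 and Ccnd1. The markers Lyz2, Cd34, Mpo, Ly6g and Retnlg were named after their values were seen. Members and lists were chosen with earlier results of these data known.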

Additional observations from a re-analysis of the deposited data

How the results depend on the processing

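The calls of Ccna2, Cdk1, Ccnb1 and Ccnb2 were kept in both antibody comparisons under every alternative run. The number of the 10 genes called lower without fibronectin was 0 at an adjusted p of 0.01 and in all 3 limma fits, and 0 to 1 with a library left out. With fibronectin it was 1 with the replicate block and 0 to 1 with a library left out. In the coating comparison of IgG it was 0 at 0.01, with all 12 libraries in the fit, in all 3 limma fits and with any library left out, and DESeq2 gave no adjusted p for 9 of the 10.

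Replicate numbers were tested as pairs: same-numbered libraries correlated by 0.0051 to 0.243 in their deviations from group means and others by -0.195 to 0.067, and 12 of 12 same-number values were above 0 but 6 of 12 above 0.1. A library correlated best with its own number in 22 of 24 checks, the exceptions being in the coating comparison of anti-ITGA5. This is a hint of pairing from the data, not from the design, and the labels name no shared source, so the main tests have no block. With the replicate block 2968 genes were called without fibronectin, 4538 with it, 416 for the coating in IgG, 2 for it in anti-ITGA5, and Ccnd3 (adjusted p = 0.0176) and Cdk2 (0.0396) passed on fibronectin.

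Of all genes, 2684 were called without fibronectin, 1347 at 0.01, and 1579, 1441 and 1321 by limma on log2(FPKM + 1), log2(FPKM + 0.1) and log2(FPKM + 1) without a filter. Leaving out a library gave 1473 (without IgG uncoated replicate 1) to 3834, with 1567 without IgG uncoated replicate 3 and 1755 without anti-ITGA5 uncoated replicate 1. With fibronectin 3565 were called, 2046 at 0.01, and 2306 and 2050 by the second and the third limma fit, and 2436 to 3972 with a library left out. The coating in IgG gave 58 genes, 16 at 0.01, 128 by DESeq2, 241 at 1 count, 11 over 12 libraries, 7, 9 and 11 by limma, and 9 to 101 with a library left out (9, 31 and 87 without IgG uncoated replicates 1, 2 and 3, and 13, 101 and 29 without IgG fibronectin replicates 1, 2 and 3). In anti-ITGA5 it gave 0, 5 by DESeq2, 327 at 1 count, 2 over 12 libraries, 1 by limma on log2(FPKM + 0.1) and 0 to 4 with a library left out. The interaction gave 3, 65 at 1 count, 0 and 7 in the second and the third limma fit, and 1 to 6 with a library left out. With total counts in place of TMM, 1838 genes were higher and 940 lower without fibronectin (1419 and 1265 with TMM), and 2407 and 1264 with it (1866 and 1699). The causes were not tested.

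Signs of differences that did not pass the test changed. Without fibronectin total counts gave Ccnd1 0.031, Itgb1 0.0037 and E2f1 0.021 on the log2 scale, and with fibronectin Csf1r 0.025 and Ccng2 0.036. For the coating they gave Ccne1 -0.0027 in IgG and Cdk2 -0.0023 in anti-ITGA5. Ccnd1 in the latter was 0.018 at 1 count, 0.0010 over 12 libraries and 0.013 in all 3 limma fits. With a library left out, the ranges without fibronectin were -0.022 to 0.011 for Ccnd1, -0.13 to 0.037 for Ccne2, -0.045 to 0.062 for Cdk2 and -0.037 to 0.012 for E2f1. With fibronectin they were -0.00065 to 0.051 for Ccnd1, -0.019 to 0.11 for Ccne2, -0.055 to 0.020 for Csf1r, -0.013 to 0.12 for E2f1 and -0.049 to 0.039 for Ccng2. For the coating in IgG they were -0.082 to 0.083 for Ccne1, -0.044 to 0.12 for Ccne2, -0.077 to 0.20 for Ccna2, -0.13 to 0.066 for Cdk1, -0.18 to 0.036 for Ccnb1 and -0.21 to 0.22 for Ccnb2. In anti-ITGA5 they were -0.031 to 0.026 for Ccnd1, -0.035 to 0.072 for Cdk2, -0.023 to 0.16 for Cdk1, -0.040 to 0.21 for Ccnb1 and -0.10 to 0.24 for Ccnb2. For the interaction they were -0.067 to 0.031 for Ccnd3, -0.0067 to 0.18 for Ccne2, -0.074 to 0.20 for Ccna2 and -0.16 to 0.30 for Ccnb2.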
